A study of Mus musculus with 6 samples.

Results

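The genes described here are 9 aldehyde dehydrogenases (Aldh1a1, Aldh1a3, Aldh1a7, Aldh3a1, Aldh3a2, Aldh3b1, Aldh2, Aldh9a1 and Aldh1l2) and the transketolase gene Tkt, which makes the other abundant enzyme-crystallin of the mouse cornea. They are 10 of the 17554 genes of the deposited table, picked out by a list of symbols and by no threshold on a measured value. All 10 were among the 12667 genes that passed the filter on low counts. The samples were corneal epithelium of C57BL/6 mice aged 2 months, 3 of controls labelled WT and 3 of Krt14-Cre; Rela f/f mutants labelled Rela-/-. Krt14-Cre makes a recombinase from the keratin 14 promoter and so cuts floxed Rela, the gene for the NF-κB subunit RelA, in every tissue that uses this promoter, including conjunctiva and skin. Whether the controls carried floxed alleles or the Cre transgene is not given in the sources used here. RNA of all cells of a sample was sequenced together in single reads of 50 bases, and the study used the comparison to find transcripts that depend on Rela in this tissue. In such bulk samples, fewer cells of a type and less RNA per cell cannot be told apart.

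Aldehyde dehydrogenases oxidise aldehydes to carboxylic acids with NAD or NADP. ALDH1A1, ALDH1A2 and ALDH1A3 turn retinaldehyde into retinoic acid, the vitamin A metabolite that controls differentiation of the ocular surface. ALDH3A1 clears aldehydes formed when ultraviolet light damages lipids. The corneal epithelium of mammals stores a few metabolic enzymes at levels far beyond catalytic need. These are called corneal crystallins by analogy with the lens, and in the mouse ALDH3A1 and transketolase are the best known of them.

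Rela itself (gene 19697, chromosome 19 of GRCm38, 5635891 to 5649631) was measured first, as the targeted gene. Controls gave FPKM values of 36.5, 34.7 and 33.4, and mutants gave 4.93, 5.53 and 5.72, so the labels held in all 6 samples. FPKM corrects reads for the length of a transcript and for library size, so it allows levels of different genes to be compared. Its log2 fold change, here always mutant minus control, was -2.75 (SE 0.085, adjusted p = 5.5e-07). Every p is Benjamini-Hochberg adjusted over all genes tested and comes from the quasi-likelihood test of edgeR unless another tool is named, and SE is the standard error. Expected counts summed to between 19492942 and 19733834 per sample, so that 3 counts, taken as the floor, equal 0.152 to 0.154 CPM, the count scaled to a fixed library size. Floors of this kind cover counting error only. The first principal component, with 65.1% of the variance, separated the genotypes, and mutants 1 and 3 lay at opposite ends of the next, with 11.5%. All 6 corneal epithelial markers were measured, at a summed 61347 to 69584 CPM in controls and 60713 to 64178 CPM in mutants. Most of this sum is Krt12 and Krt5, whose log2 fold changes of -0.15 and -0.07 did not pass the test, while 2 of the 6 rose, Krt14 by 3.32 (241.1 to 320.9 CPM in controls and 2330 to 3636 CPM in mutants, adjusted p = 1.1e-05) and Clu by 1.23 (adjusted p = 9.1e-05). For several other cell types the summed marker levels of the groups did not overlap. The summed level of 8 keratocyte markers was 0.662 to 0.907 CPM in controls and 1.70 to 8.78 CPM in mutants. Only 1 of them, Dcn, passed the filter on low counts, and it rose (log2 fold change 4.17, adjusted p = 0.0051). It had 3, 2 and 1 counts in controls, which is at or under the floor, and 66, 34 and 14 in mutants. The summed level of 5 conjunctival and goblet cell markers was 2249 to 2630 CPM in controls and 1664 to 1973 CPM in mutants. Most of it was Krt13 (log2 fold change -0.45, adjusted p = 0.015). Krt8 fell too (-1.43, adjusted p = 0.010), while Krt4 (-1.01, 0.091) and Krt19 (0.06, 0.84) did not pass the test. The sum of 6 immune markers was 26.4 to 31.4 CPM and 35.5 to 38.0 CPM, most of it Cd68. Neither Cd68 (0.22, adjusted p = 0.22) nor Cd74 (0.49, adjusted p = 0.18) passed the test, and each overlapped between the groups. The sum of 3 vascular markers, none of which passed the filter on low counts, was 0.101 to 0.313 CPM in controls and 0.463 to 0.698 CPM in mutants. For melanocyte, lens and epidermal markers the ranges of the groups overlapped. No marker was at 0 in all samples, but the keratocyte gene Kera reached only 0.103 CPM and the goblet cell mucin Muc5ac only 0.0514 CPM. Keratocytes also hold aldehyde dehydrogenases and transketolase as crystallins. The part of these cells in the values given next was not tested.

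Loss of Rela went with a lower level of Aldh1a1 and a higher level of Aldh1a3, the retinaldehyde-oxidising pair of this tissue, and with much smaller falls of Aldh3a1 and Aldh2. At an adjusted p under 0.05, 4 of the 10 genes differed, 1 higher and 3 lower in the mutants. Over all genes tested, 13.2% passed this threshold, 7.82% higher and 5.42% lower. The median log2 fold change of the 10 genes was -0.27, and that of all genes tested was -0.0028. In 8 genes the CPM values of the groups did not overlap, 1 with higher and 7 with lower mutant values, against 33.7% of all genes in either direction and 16.4% with lower mutant values. At the study's thresholds, an adjusted p no higher than 0.001 together with a change of 2-fold or more, the 2 genes Aldh1a1 and Aldh1a3 passed, against 1.37% of all genes. Single libraries decided some of these counts: without control replicate 2, control replicate 3 or mutant replicate 2 the count at 0.05 was 2 rather than 4, and at the study's thresholds it was 0 without control replicate 2 and 1 without control replicate 3. Over all genes, calls at 0.05 fell from 1678 to 857, 999 and 1185 without control replicate 2, control replicate 3 and mutant replicate 2.

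**Figure D1:**
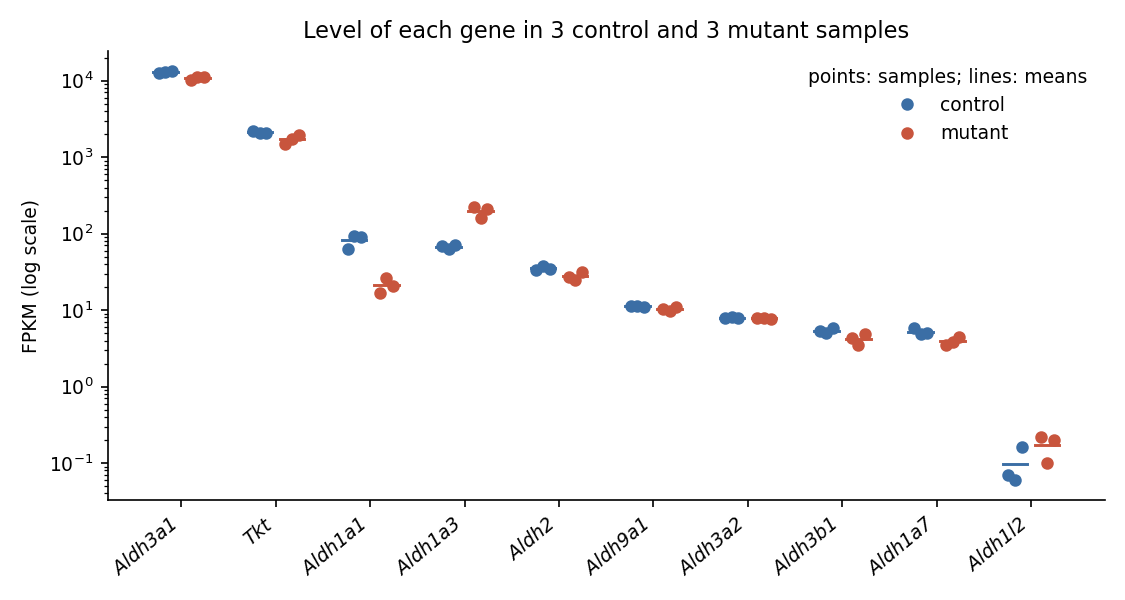
FPKM (log axis) of the 10 genes in 3 control (blue) and 3 mutant (red) samples, ordered by their control mean, with a line at each group mean. Aldh3a1 and Tkt stand far above the rest, and the groups lie furthest apart in Aldh1a1 and Aldh1a3.

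Aldh1a1 (gene 11668, plus strand of chromosome 19, 20492174 to 20643462), which encodes a cytosolic retinaldehyde dehydrogenase, was at 63.5, 92.7 and 89.0 FPKM in controls and at 16.8, 26.5 and 20.8 FPKM in mutants. Every mutant value lay below every control value, and control 1 was the lowest of the controls. The mean FPKM was 81.7 ± 15.9 (SD, n = 3) in controls and 21.4 ± 4.9 (SD, n = 3) in mutants. Its log2 fold change was -1.94 (SE 0.18, 95% interval -2.35 to -1.52, adjusted p = 2.1e-04), a level 3.83-fold higher in control. The call held in all 15 alternative analyses, with log2 fold changes between -2.13 and -1.80.

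Aldh1a3 (gene 56847, minus strand of chromosome 7, 66390892 to 66427477) encodes a further retinaldehyde dehydrogenase, known from the developing eye and nose. Controls held 68.4, 63.8 and 70.4 FPKM, and mutants held 219.8, 159.4 and 209.4 FPKM. The lowest mutant value was more than any control value, and the 3 controls lay closer together than the 3 mutants. The mean FPKM rose from 67.5 ± 3.4 to 196.2 ± 32.3 (SD, n = 3 each), with a log2 fold change of 1.53 (SE 0.12, 95% interval 1.27 to 1.80, adjusted p = 6.6e-05) or a fold of 2.90. This call, too, held in all 15 alternatives, with log2 fold changes from 1.44 to 1.66.

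In controls the levels of both genes were alike: the FPKM of Aldh1a1 over that of Aldh1a3 was 0.928, 1.45 and 1.26. In mutants it was 0.0765, 0.166 and 0.0995. Aldh1a3 accordingly made up 45.6% ± 5.7 of their summed FPKM in controls and 89.9% ± 3.7 in mutants (SD, n = 3 each). The sum itself was 131.9, 156.5 and 159.4 in the controls and 236.7, 185.9 and 230.2 in the mutants, so every mutant sum exceeded every control sum. Its mean was 149.3 ± 15.1 and 217.6 ± 27.6 (SD, n = 3 each). This is a sum of RNA levels, and neither enzyme amount nor activity was measured in these data. The study found less Aldh1a1 protein in mutant corneas and proposed that retinoic acid synthesis is defective there. Mutant 2 had the highest Aldh1a1 and the lowest Aldh1a3 of the mutants, and mutant 1 had the lowest Aldh1a1 and the highest Aldh1a3. The remaining retinaldehyde dehydrogenase gene, Aldh1a2, had 1 count in mutant 1 and none in the other samples, which is under the floor.

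**Figure D2:**
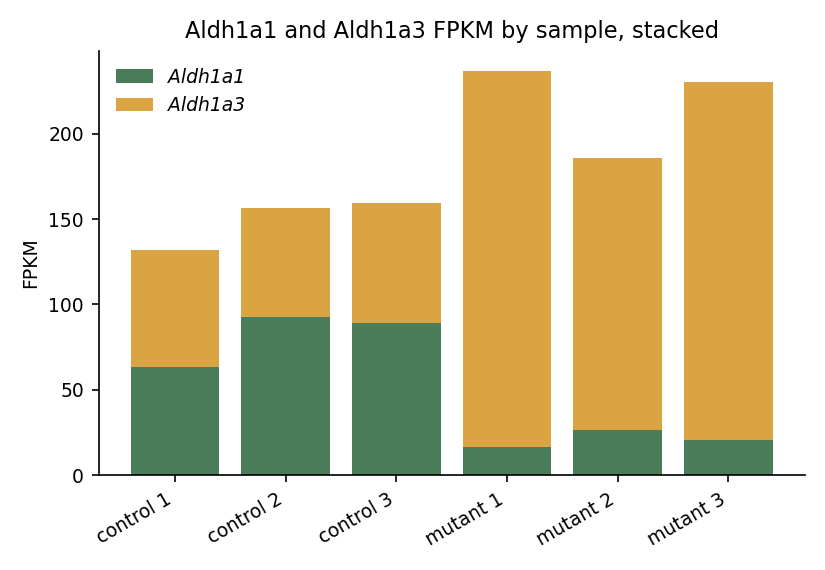
FPKM of Aldh1a1 (green) and Aldh1a3 (yellow) stacked in each of the 6 samples, with bars from 0. The sum runs from 131.9 to 159.4 in controls and from 185.9 to 236.7 in mutants, where Aldh1a3 fills most of each bar.

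Aldh1a7 (gene 26358, minus strand of chromosome 19, 20692953 to 20727556) lies 49.5 kb from Aldh1a1, end to end on the opposite strand. It encodes the closest relative of ALDH1A1 in the mouse, and the coding sequences were identical at 1377 of 1503 bases (91.6%), while no other pair among the 9 genes passed 69.7%. Since a read of 50 bases may then fit both genes, the shared stretches bear on how their counts were divided. Of the 50-base windows in Aldh1a1 transcripts, 3.06% also occurred in Aldh1a7, and 7.49% of Aldh1a7 windows occurred in Aldh1a1 (GENCODE transcripts of GRCm38). The 60 coding bases with the most differences are shown, with the 16 that differ in capitals. They lie in exon 7 of Aldh1a1 (chr19:20619973-20620032, plus strand) and exon 4 of Aldh1a7 (chr19:20719252-20719311, minus strand).
Aldh1a1: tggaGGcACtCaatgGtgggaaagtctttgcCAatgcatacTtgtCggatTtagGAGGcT
Aldh1a7: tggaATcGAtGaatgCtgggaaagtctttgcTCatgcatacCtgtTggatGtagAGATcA

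At the other extreme, the longest identical coding stretch ran over 100 bases, so reads falling inside it cannot be assigned to one gene by sequence.

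Aldh1a7 was at 5.85, 4.83 and 5.05 FPKM in controls and at 3.50, 3.84 and 4.43 FPKM in mutants. The groups did not overlap, and mutant 3 came nearest to the controls. Its log2 fold change of -0.43 (SE 0.13, 95% interval -0.72 to -0.13) missed the threshold, with an adjusted p of 0.061, and passed it only without mutant replicate 3, at -0.51 and 0.0491. The FPKM of Aldh1a1 was 10.9, 19.2 and 17.6 times that of Aldh1a7 in controls and 4.81, 6.90 and 4.70 times in mutants. With the counts of both genes added, most of which are those of Aldh1a1, the log2 fold change was -1.78 (SE 0.17, adjusted p = 1.8e-04). The difference between the changes of the pair was not tested.

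The pair also shares sequence upstream. RefSeq (GRCm38.p6) places a start of Aldh1a1 next to its coding exons as well as a distant one, and the 100 bases before the nearer start matched those before the Aldh1a7 start at 94% of positions. They are shown because the levels of the genes behind them differed so widely, with the 6 differing bases in capitals, from chr19:20601868-20601967 (plus strand) and chr19:20727557-20727656 (minus strand).
Aldh1a1: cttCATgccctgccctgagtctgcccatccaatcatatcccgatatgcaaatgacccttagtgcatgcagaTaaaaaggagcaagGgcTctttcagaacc
Aldh1a7: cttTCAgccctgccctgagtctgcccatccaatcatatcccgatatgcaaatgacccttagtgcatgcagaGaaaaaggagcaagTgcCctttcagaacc

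Windows of 250 bases before to 50 bases after a start were at hand for 6 of the 10 genes (7 windows, with 2 for Aldh1a1), namely Aldh1a1, Aldh1a7, Aldh3a2, Aldh3b1, Aldh9a1 and Tkt. The κB consensus that NF-κB dimers bind was searched on both strands and occurred in 0 of these 7 windows, and in 10.1% of 17342 windows of all genes. The antioxidant response core TGACNNNGC, found in 13.7% of all windows, occurred in Aldh9a1. The xenobiotic response core GCGTG, found in 44.3%, occurred at 2 places in Aldh9a1 and at 1 each in Aldh3a2 and Tkt. The retinoic acid response element of the DR5 type was in none of the 7 and in 0.265% of all windows. A match is a match of letters only, and windows further from the start were not searched. The study reported a putative NF-κB site in the Aldh1a1 promoter, further upstream than these windows reach. It also reported RelA binding there by chromatin immunoprecipitation in cultured corneal epithelial cells.

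Among the crystallins, Aldh3a1 (gene 11670, plus strand of chromosome 11, 61208510 to 61218418) was among the most abundant transcripts of the tissue. Controls held 12684, 12783 and 13287 FPKM and mutants 10227, 11075 and 11310 FPKM. In controls only Krt12 and Gsto1 had a higher mean. The highest mutant value was below the lowest control value. It took 2.06% ± 0.05 of all expected counts in controls and 1.73% ± 0.09 in mutants (SD, n = 3 each). Its log2 fold change was -0.25 (SE 0.072, 95% interval -0.41 to -0.091, adjusted p = 0.047), a fall to 0.839 of the control level. This call was marginal: it held in 3 of the 15 alternatives, and was lost without any one of the 6 libraries, with log2 fold changes from -0.28 to -0.22 and adjusted p from 0.0636 to 0.147. Of the summed FPKM of the 9 aldehyde dehydrogenases, Aldh3a1 made up 98.4% ± 0.1 in controls and 97.6% ± 0.3 in mutants.

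Tkt (gene 21881, plus strand of chromosome 14, 30548150 to 30576251) encodes an enzyme of the non-oxidative pentose phosphate pathway. Controls were close together at 2184, 2072 and 2068 FPKM, and mutants ranged more widely, at 1504, 1699 and 1958 FPKM. All mutants lay below the controls, with mutant 3 the nearest. The means were 2108 ± 66 and 1720 ± 227 (SD, n = 3 each), and the log2 fold change of -0.30 (SE 0.093, 95% interval -0.50 to -0.089) missed the threshold with an adjusted p of 0.065. It passed with DESeq2, at an adjusted p of 0.0163, and without mutant replicate 3, at -0.39 and 0.0199. The ratio of Aldh3a1 to Tkt FPKM was 6.13 ± 0.31 in controls and 6.36 ± 0.53 in mutants, with overlapping values.

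Aldh2 (gene 11669, chromosome 5, 121566027 to 121595908), the mitochondrial enzyme known for oxidising acetaldehyde, was lower in the mutants. Its level was 33.7, 38.1 and 34.4 FPKM in controls and 26.9, 24.5 and 31.2 FPKM in mutants. The groups did not overlap, and mutant 3 was again the mutant nearest to the controls. The log2 fold change was -0.37 (SE 0.083, 95% interval -0.56 to -0.19, adjusted p = 0.017), a fall by 22.8%. The call held in 11 of the 15 alternatives and was lost without control replicate 2 (adjusted p = 0.0743), control replicate 3 (0.0634) or mutant replicate 2 (0.0688).

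For the other 4 genes no difference passed the threshold. Aldh9a1, which acts in carnitine synthesis, had an FPKM of 11.3, 11.3 and 11.0 in controls and of 10.3, 9.83 and 11.0 in mutants, a log2 fold change of -0.13 (95% interval -0.32 to 0.061, adjusted p = 0.36). Aldh3a2, the fatty aldehyde dehydrogenase of the endoplasmic reticulum, lies 6067 bases beyond the end of Aldh3a1 on the opposite strand. It had an FPKM of 7.88, 8.17 and 7.89 in controls and of 7.93, 7.80 and 7.58 in mutants, overlapping in FPKM though not in CPM. Its log2 fold change of -0.05 (95% interval -0.22 to 0.12, adjusted p = 0.72) was the smallest of the 10 genes. In FPKM these neighbours differed in level by more than 3 orders of magnitude. Aldh3b1, which oxidises lipid-derived aldehydes, had an FPKM of 5.37, 4.95 and 5.75 in controls and of 4.31, 3.52 and 4.85 in mutants. Its mutant values lay below the controls, yet the log2 fold change of -0.35 (95% interval -0.66 to -0.027) had an adjusted p of 0.15. Of its 50-base windows, 8.97% also occur in other genes, chiefly Aldh3b3 (8.17%), so its counts are less certain. Adding the counts of Aldh3b2 and Aldh3b3 could not test this, since the sum is almost wholly Aldh3b2. Aldh1l2, the mitochondrial 10-formyltetrahydrofolate dehydrogenase, was scarcely detected, with 8, 4 and 17 expected counts in controls and 24, 11 and 23 in mutants. Its groups overlapped, its log2 fold change of 0.98 had a wide interval (-0.15 to 2.11, adjusted p = 0.24), and 13.6% of its windows occur in other genes. The value turned on single libraries, at 0.61 without control replicate 2 and 1.68 without control replicate 3, and with limma on log2(FPKM + 1), where the pseudocount exceeds the level itself, it was 0.10.

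By mean FPKM the order in controls was Aldh3a1, Tkt, Aldh1a1, Aldh1a3, Aldh2, Aldh9a1, Aldh3a2, Aldh3b1, Aldh1a7 and Aldh1l2. The neighbours Aldh1a1 and Aldh1a3 overlapped in their sample values, as did Aldh3b1 and Aldh1a7, so neither order is settled beyond its spread. In mutants Aldh1a3 stood next to Tkt at 196.2 and Aldh1a1 fell behind Aldh2, with which it overlapped (16.8 to 26.5 against 24.5 to 31.2). The rest kept their order.

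**Figure D3:**
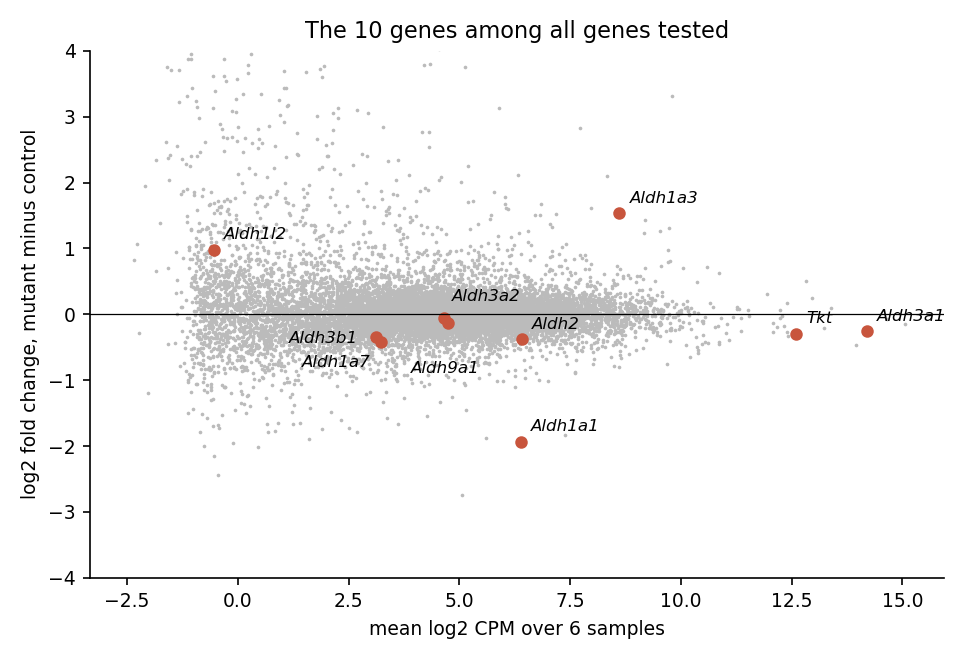
Log2 fold change (mutant minus control) against mean log2 CPM over the 6 samples, for the 10 genes (red) among the 12667 genes tested (grey). A further 65 genes lie outside the plotted range of 4 in either direction. Aldh1a1 lies at -1.94 and Aldh1a3 at 1.53, and the other 8 genes lie between -0.43 and 0.98.

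Of the 12 other aldehyde dehydrogenases, 8 were tested, and 1 rose and 2 fell (37.5% called, against 13.2% of all genes, median log2 fold change 0.05). Aldh6a1, which acts in valine breakdown, had an FPKM of 21.1, 21.2 and 19.0 in controls and of 13.7, 14.1 and 14.6 in mutants, with no overlap and a log2 fold change of -0.53 (SE 0.072, adjusted p = 0.0014). It passed in each alternative. Aldh4a1, which acts in proline breakdown, fell by 0.40 on the log2 scale (adjusted p = 0.016). Its mean FPKM went from 11.2 ± 0.7 to 8.60 ± 0.88. The call was lost without control replicate 2 (adjusted p = 0.073) or mutant replicate 2 (0.0596). Aldh18a1, which makes the precursor of proline, went the other way, from 1.48, 1.07 and 2.65 to 3.20, 3.24 and 4.28 (log2 fold change 1.03, SE 0.28, adjusted p = 0.041), a call lost without control replicates 1 or 2 or mutant replicates 2 or 3. Aldh3b2 was the most abundant of the 12, at a mean FPKM of 191.4 ± 13.7 and 181.0 ± 13.6, with overlapping values and a log2 fold change of -0.08 (adjusted p = 0.58). Aldh1l1, Aldh5a1, Aldh7a1 and Aldh16a1 also overlapped, with log2 fold changes from -0.04 to 0.24. Aldh1l1, the cytosolic counterpart of Aldh1l2, was high in control 1 (FPKM 8.63 against 4.93 and 4.91), and without that library its log2 fold change of 0.21 became 0.53 (adjusted p = 0.0225). Aldh1a2, Aldh1b1, Aldh3b3 and Aldh8a1 did not pass the filter, with at most 9.4 expected counts in a sample.

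**Figure D4:**
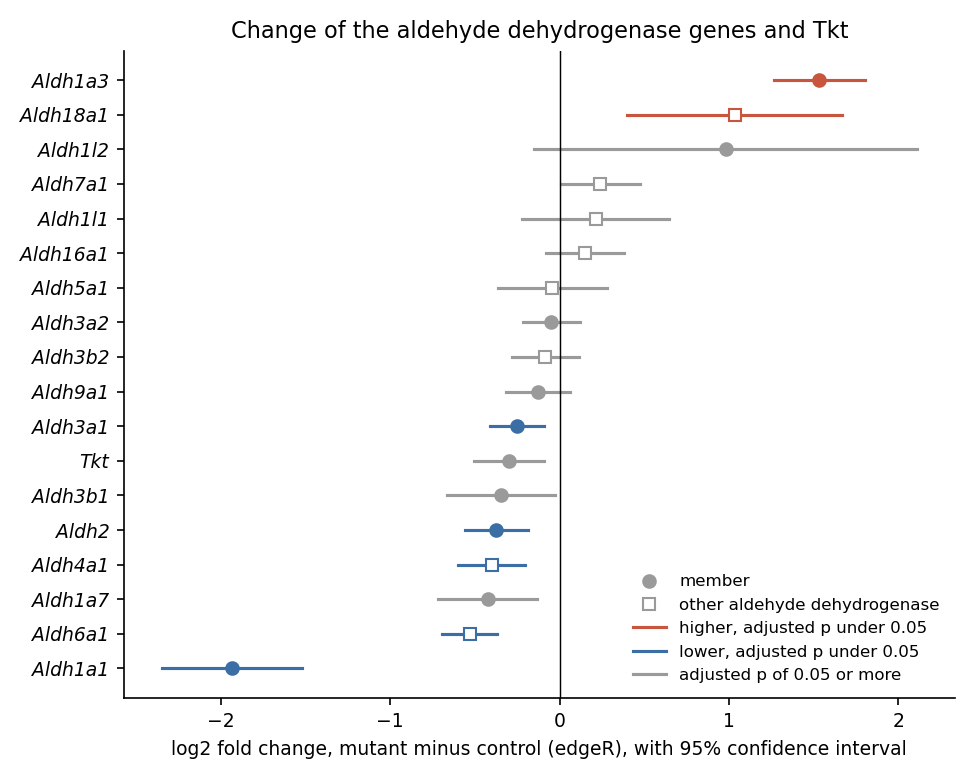
Log2 fold change (mutant minus control) with its 95% confidence interval for the 10 genes (filled circles) and the 8 other tested aldehyde dehydrogenases (open squares), coloured where the adjusted p was under 0.05. Aldh1a3 (1.53) and Aldh1a1 (-1.94) lie at the ends.

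Of 21 listed genes of retinoid oxidation and clearance, 16 were tested, 3 fell and none rose. This is 18.8% of those tested, with a median log2 fold change of -0.05, against 13.2% called among all genes. Adh7, an alcohol dehydrogenase that oxidises retinol, fell from a mean FPKM of 516.2 ± 6.7 to 307.6 ± 24.4 (log2 fold change -0.75, SE 0.075, adjusted p = 2.8e-04). Adh1, of the same family, fell from 985.8 ± 59.6 to 713.4 ± 48.7 (log2 fold change -0.47, adjusted p = 0.0044). Cyp26b1 degrades retinoic acid and so acts downstream of its synthesis. It had an FPKM of 46.7, 73.3 and 81.4 in controls and of 13.6, 22.6 and 20.8 in mutants (log2 fold change -1.83, SE 0.23, adjusted p = 8.7e-04).  The other 13 tested genes, among them the retinol dehydrogenases Rdh10 (0.09) and Rdh11 (0.25), did not pass the test.

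Around Tkt, 11 of 13 listed genes of the pentose phosphate pathway were tested. Prps1, which makes phosphoribosyl pyrophosphate, was the 1 that passed, higher by 0.68 on the log2 scale (SE 0.17, adjusted p = 0.030), a call lost without control replicates 1 (adjusted p = 0.0539), 2 (0.112) or 3 (0.102) or mutant replicate 3 (0.0763). The transaldolase gene Taldo1, the partner of transketolase, had means of 208.8 ± 5.7 and 175.0 ± 26.8 FPKM with overlapping values (log2 fold change -0.26, adjusted p = 0.16). The share called was 9.09%, against 13.2% of all genes, and the median of the list was -0.08.

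Of 17 listed enzymes that clear carbonyls by other routes, 14 were tested, 2 rose and none fell (14.3% called, close to the 13.2% of all genes, median -0.09). In 6 of the 14 every mutant CPM value lay below every control value, against 16.4% of all genes, but none of these 6 passed the test. Akr1b8, an aldo-keto reductase, rose from a mean FPKM of 3.95 ± 1.64 to 54.8 ± 9.5 (log2 fold change 3.79, SE 0.26, adjusted p = 3.0e-05). Akr1b3, the aldose reductase, rose from 226.8 ± 12.8 to 365.8 ± 64.6 (log2 fold change 0.69, adjusted p = 0.0060). Gsta4, a glutathione transferase for lipid aldehydes and very abundant here, was 1 of these 6, with means of 5039 ± 384 and 4205 ± 178 FPKM and an adjusted p of 0.069. The others were Akr1b7, Dcxr, Cbr1, Akr1c18 and Akr1c13, with log2 fold changes from -0.43 to -0.21.

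All 18 listed genes of folate one-carbon metabolism were tested, 3 rose and 1 fell (22.2% called, against 13.2% of all genes, median 0.12). The serine hydroxymethyltransferases Shmt1 and Shmt2 rose by 0.61 (adjusted p = 0.0086) and 0.46 (adjusted p = 0.037) on the log2 scale, and Mthfd2l fell by 0.37 (adjusted p = 0.040). Mthfd1l, at 0.97, sat on the threshold with an adjusted p that rounds to 0.050. Apart from Shmt1, each of these calls was lost without several single libraries: Shmt2 without control replicates 1 or 2 or mutant replicates 1 or 3, Mthfd1l without any but mutant replicate 1, and Mthfd2l without any one.

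Of 18 other crystallins and enzyme-crystallins, 14 were tested, 4 rose and none fell (28.6% called, against 13.2% of all genes, median 0.16). The 4 are enzymes of glycolysis, some of which serve as lens crystallins in other vertebrates. The log2 fold changes were 0.73 for Eno1 (adjusted p = 3.9e-04), 0.55 for Ldha (0.0027), 0.70 for Gapdh (0.0043) and 0.68 for Pgk1 (0.0053). Gapdh was the most abundant of these, at a mean FPKM of 642.2 ± 100.1 in controls and 1051 ± 89 in mutants, still below Tkt. The small heat shock crystallin Cryab, at 73.7 ± 8.3 and 55.1 ± 19.8 FPKM, overlapped between groups (log2 fold change -0.43, adjusted p = 0.24).

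**Figure D5:**
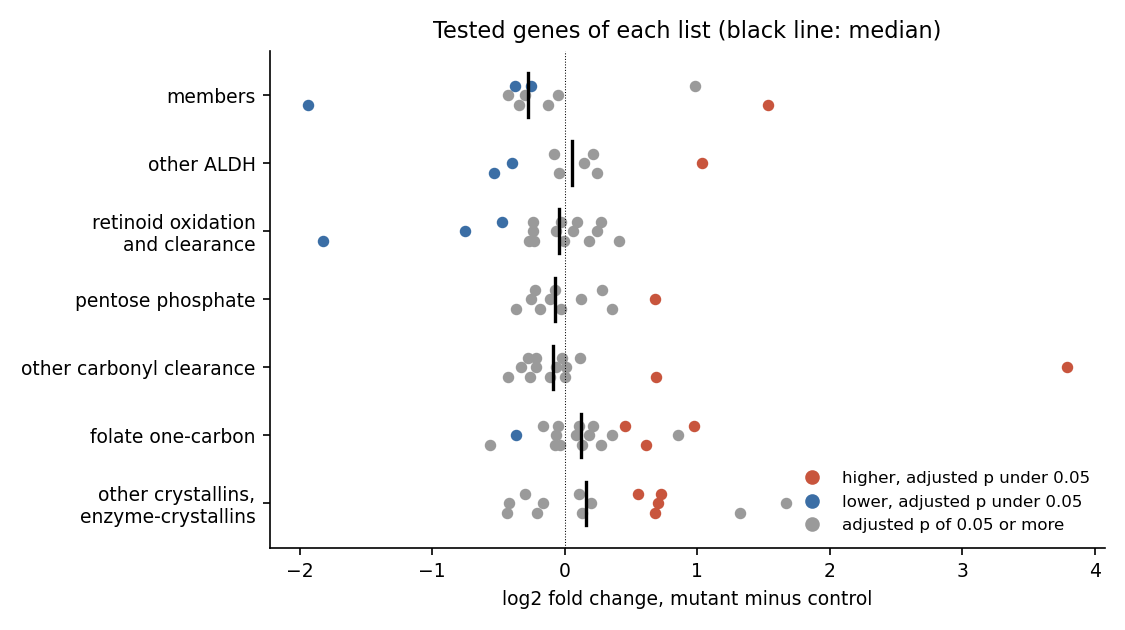
Log2 fold change (mutant minus control) of each tested gene of the 10 described genes and of the 6 related lists, coloured where the adjusted p was under 0.05, with the list median as a black line. The medians lie between -0.27 and 0.16, and single genes, Akr1b8 at 3.79, Aldh1a1 at -1.94 and Cyp26b1 at -1.83, lie furthest out.

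The genes whose pattern was most like that of 3 leading members were found by the root mean square distance of log2 CPM, centred on the control mean, over the 6 samples. Nearest to Aldh1a1 were Cyp26b1 (0.155), Gng13 (0.249) and Tsc22d3 (0.296), with log2 fold changes of -1.83, -1.79 and -1.87. Nearest to Aldh1a3 were Trim62 (0.069), Urah (0.147) and Sphk1 (0.149), at 1.51, 1.62 and 1.59. Nearest to Aldh3a1 were Chd1l (0.015), Adam15 (0.023) and Fuz (0.024), at -0.27, -0.24 and -0.27. The distances were smaller around Aldh3a1, where the changes themselves were small.

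Aldh1a1, Aldh1a7 and Aldh3b1 lie on chromosome 19, as does Rela, at 14.84, 15.04 and 1.71 Mb from it. All 3 had lower values in every mutant, with log2 fold changes of -1.94, -0.43 and -0.35, though only that of Aldh1a1 passed the test. Of the other aldehyde dehydrogenases tested on this chromosome, Aldh3b2, next to Aldh3b1, overlapped between the groups at -0.08, and Aldh18a1 was higher at 1.03.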

How the data were processed

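Corneal epithelial RNA of 3 control and 3 mutant samples, called independent biological samples in the study's methods, was analysed from 1 deposited gene table. The authors filtered single-end reads, aligned them with Bowtie2 2.2.5 and deposited expected counts made with RSEM 1.2.12, in which an ambiguous read is shared out between genes. They are not normalized or pooled, and 31.5% to 32.2% of the values in a sample are not whole. The authors also deposited FPKM, in which counts are corrected for the length of a transcript and for library size. The file does not name this unit. It was checked on the 558 to 584 genes per sample with 1 GENCODE transcript and at least 200 counts, where the length implied by reading the values as FPKM was 0.996 to 0.997 of the annotated length (median). The log2 fold changes, p-values and q-values of their own DEGseq comparison were not used. The processing notes name the build mm9, but the coordinates in the table are those of GRCm38, and these are the ones printed. Whether counting used strand is not given in the sources used here. No source says how many mice make up a sample. Where samples share mice, p-values measure only the spread between these samples.

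After rounding of the expected counts, edgeR 4.0.16 (R 4.3.3) was run with filterByExpr (minimum count 10, minimum total 15), TMM factors and its quasi-likelihood test, followed by Benjamini-Hochberg adjustment. A gene was called at an adjusted p under 0.05. The choice of members and gene lists, made by name, was made with earlier results of these data known. Named besides the members were the other aldehyde dehydrogenases, Rela, up to 4 genes of each list with the smallest adjusted p under 0.05, and the 3 nearest genes to each of Aldh1a1, Aldh1a3 and Aldh3a1. Named outside this rule, after their values were seen, were Rdh10, Rdh11, Taldo1, Gsta4 and the 5 other carbonyl-clearing genes without overlap, Cryab, the abundant Gsto1 and single genes of the cell type marker lists. As alternatives, DESeq2 1.42.0, limma 3.58.1 on log2 FPKM with a pseudocount of 1 or 0.1, upper-quartile scaling, other filters and a replicate block were run, as were counts of close relatives added, other thresholds and each sample left out. Scaling by total counts was added after the data were seen. The fits were tested on simulated data for mutant against control with 3 samples each. There edgeR called 191 of 199 changed genes among 12667, with 18 false calls. These counts are for all changed genes together. Recovery of changes as small as those of Aldh3a1, Tkt, Aldh2 and Aldh1a7 was not tested. Coding identity was used in place of protein identity, and shared windows of 50 bases were counted in GENCODE transcripts. Totals of 19492942 to 19733834 expected counts per sample leave low genes such as Aldh1l2 imprecise.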

Additional observations from a re-analysis of the deposited data

How the results depend on the processing

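Of the 10 genes, 4 passed an adjusted p under 0.05, and Aldh1a1 and Aldh1a3 passed in all 15 alternatives. The count was 5 with DESeq2, 4 with upper-quartile scaling and with scaling by total counts (chosen after seeing the data), 3 with no filter, where 10 counts were required of every sample (then Aldh1l2 has no value) and with limma on either log2 scale, and 2 with limma without a filter or at an adjusted p of at most 0.01. Leaving out 1 sample gave 2 to 5. At the study's thresholds the count of 2 became 0 with limma without a filter and ranged from 0 to 2 when 1 sample was left out. In the fit with a replicate block, 3 of the 10 genes passed, Aldh3a1 being lost (adjusted p = 0.106). A control and a mutant sample cannot be from 1 mouse. Whether replicate numbers mark a shared litter or batch is not given in the sources used here. The deviations of same-numbered samples from their group means correlated at 0.037, 0.051 and -0.041. The calls over all genes moved as well. They were 1678 of 12667 in the main analysis, 1822 with DESeq2, 1731 of 17514 with no filter and 1551 of 11968 with 10 counts in every sample. With limma they were 1533 or 1556, and 1160 of 17535 without a filter. Leaving out 1 sample gave between 857 of 12868 (control replicate 2) and 1869 of 12819 (mutant replicate 1), with 999 of 12875 without control replicate 3. The log2 fold change of Aldh5a1, -0.04, changed sign at 0.020 without control replicate 2, 0.00066 without mutant replicate 2 and 0.018 without mutant replicate 3, and leaving out 1 sample moved it between -0.1534 and 0.01993. With limma and no filter, 1 of the other aldehyde dehydrogenases, 1 folate gene and no pentose phosphate gene passed, against 3, 4 and 1 in the main analysis, and DESeq2 called 4 rather than 2 carbonyl-clearing genes. The cause of these shifts was not tested. Depth limits Aldh1l2, with at most 24 counts in a sample.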
